A study of Mus musculus with 4 samples.

Results

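The Brinp genes of the mouse were examined in an ATAC-Seq experiment on immortalized mouse embryonic fibroblasts (imMEFs) that carried or lacked HAT1. ATAC-Seq cuts open DNA with the transposase Tn5, so the number of reads at a site measures how accessible its chromatin was. Every accessible site that lay within the body of Brinp1, Brinp2 or Brinp3, or whose centre lay within 500 kb of the start of 1 of them, was assigned to the nearest of the 3 genes. This rule gave 36 of the 82325 sites in the table, with 12 for Brinp1, 23 for Brinp2 and 1 for Brinp3. The family was selected on the normalized counts near Brinp1, which were known to be lower in HAT1 KO than in HAT1 WT cells, so its differences between genotypes are given as a description, with no test.

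The 4 libraries came from 2 HAT1 WT (HAT1+/+) and 2 HAT1 KO (HAT1-/-) lines, each made from the embryos of C57bl6 background mice and grown in the same serum-containing medium. HAT1 acetylates newly made histone H4 before it is assembled into chromatin. SV40 T antigen was used to immortalize the lines of both genotypes, so all 4 carry it. Each line is 1 culture, and anything that set 1 line apart from another before or during immortalization cannot be told apart from genotype. The lines are named WT 1, WT 2, KO 1 and KO 2 here, and these numbers pair no WT line with a KO line. The submitters' names of WT 1 and KO 2 share a number whose meaning the labels do not give. Because whole cultures were measured, a site that was open in fewer cells cannot be told apart from one that was less open in every cell.

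The BRINP proteins (BMP and retinoic acid inducible neural-specific proteins) are a family of secreted or membrane-associated proteins found mainly in neurons. They carry a MACPF domain, the fold of perforin and of the late complement components, which they share with the astrotactins Astn1 and Astn2. Brinp1 is best known for its expression in the developing and adult brain, where its loss in mice alters behaviour, and its human counterpart was described as a gene silenced in bladder cancer. The genes are long and lie in gene-poor DNA.

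Values are normalized counts, that is reads per site divided by a factor for each library and rounded to whole numbers. The summed value of all sites was between 8008069 and 8516263 in the 4 libraries, and the median site had 51 to 53. The worth of 1 read was estimated from which whole numbers were missing (KO lines) or more frequent than their neighbours (WT lines, at 15 of 15 predicted numbers in WT 1 and 34 of 34 in WT 2). It was about 0.85 normalized counts in WT 1, 0.714 in WT 2, 1.076 in KO 1 and 1.5005 in KO 2. In the WT lines some values can stand for either of 2 neighbouring read numbers, so WT reads of a single site are approximate. The sites thus held about 9420000, 11420000, 7830000 and 5680000 reads. A value of 0 allows up to 3 reads, or 2.55, 2.14, 3.23 and 4.50 normalized counts in the same order, and covers counting error only. At the targeted gene, Hat1, the promoter site held 390 and 384 in the WT lines and 438 and 368 in the KO lines, which checks no label, because a promoter can stay open when the gene makes no protein. Over all sites, limma called 249 lower in KO (0.302%) and 58 higher (0.0705%) at an unadjusted p under 0.01 and a log2 fold change of at least 1 in size. No site had an adjusted p under 0.05 (Benjamini-Hochberg over 82325 sites, limma), while 2579 had an unadjusted p under 0.05. Both KO values lay below both WT values at 14.3% of all sites and above both at 14.6%.

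The sequences below are from the GRCm38.p6 (mm10) reference and show the DNA on which the values were measured. The first is the Brinp1 promoter from RefSeq, written on the strand of the gene at chr4:68954348-68954647, minus strand, with matches to the Sp1 motif GGGCGG or its complement in capitals. Then follow, on the plus strand, the central 200 bases of sites that carry the results. They are the strongest Brinp1 site, in an intron at chr4:68789033-68789232, a second intronic Brinp1 site at chr4:68865220-68865419, and the Brinp1 site of lowest log2 fold change at chr4:68632428-68632627. The strongest Brinp2 site at chr1:158605969-158606168, the second strongest at chr1:158733118-158733317 and the only Brinp3 site at chr1:146357086-146357285 complete the set. In these, capitals mark matches to the AP-1 motif TGANTCA or the TEAD motif GGAATG, on either strand.
Brinp1 promoter: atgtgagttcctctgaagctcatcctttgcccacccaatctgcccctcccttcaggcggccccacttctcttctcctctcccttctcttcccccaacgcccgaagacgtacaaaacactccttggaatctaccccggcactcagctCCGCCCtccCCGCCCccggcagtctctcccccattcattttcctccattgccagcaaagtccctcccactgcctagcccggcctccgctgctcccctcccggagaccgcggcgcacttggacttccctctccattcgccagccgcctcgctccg
Brinp1 strongest intronic site: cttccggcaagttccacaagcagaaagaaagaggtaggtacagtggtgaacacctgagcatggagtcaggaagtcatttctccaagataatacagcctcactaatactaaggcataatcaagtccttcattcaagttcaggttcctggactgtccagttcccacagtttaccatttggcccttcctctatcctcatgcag
Brinp1 second intronic site: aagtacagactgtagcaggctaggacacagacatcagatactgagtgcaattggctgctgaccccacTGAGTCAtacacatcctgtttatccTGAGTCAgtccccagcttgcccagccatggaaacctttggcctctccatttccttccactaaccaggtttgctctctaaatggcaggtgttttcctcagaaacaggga
Brinp1 distal site: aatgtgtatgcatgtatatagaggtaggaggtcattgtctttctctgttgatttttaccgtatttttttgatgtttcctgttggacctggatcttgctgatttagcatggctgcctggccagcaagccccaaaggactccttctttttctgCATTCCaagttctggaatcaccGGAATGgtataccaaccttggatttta
Brinp2 strongest site: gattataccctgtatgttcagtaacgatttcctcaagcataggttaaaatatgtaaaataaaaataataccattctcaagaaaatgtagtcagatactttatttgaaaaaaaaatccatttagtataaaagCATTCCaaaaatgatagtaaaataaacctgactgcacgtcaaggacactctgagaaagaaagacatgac
Brinp2 second strongest site: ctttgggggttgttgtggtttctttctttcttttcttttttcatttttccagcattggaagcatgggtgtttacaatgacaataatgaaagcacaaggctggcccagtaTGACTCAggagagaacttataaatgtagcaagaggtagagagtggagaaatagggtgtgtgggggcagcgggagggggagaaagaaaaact
Brinp3 site: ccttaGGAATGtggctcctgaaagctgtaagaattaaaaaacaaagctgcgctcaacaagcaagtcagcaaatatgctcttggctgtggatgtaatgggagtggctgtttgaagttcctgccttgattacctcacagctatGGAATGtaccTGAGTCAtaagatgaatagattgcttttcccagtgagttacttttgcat

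Brinp1 (ENSMUSG00000028351.5, chr4:68761514-68954397, minus strand) had far less accessible chromatin signal in both KO lines than in either WT line. Summed over its 12 sites, the signal was 858 and 1150 in the WT lines (1004 ± 206, SD, n = 2) and 100 and 88 in the KO lines (94.0 ± 8.49, SD, n = 2), or 9.36% of the WT mean. The KO sums rest on about 92 reads in KO 1 and 57 in KO 2. The median log2 fold change of the sites was -3.47, against 0.01 for all sites in the table. Both KO values lay below both WT values at 11 of the 12 sites (14.3% of all sites), and 7 of the 12 were called lower (0.302% of all sites) and 0 higher. This contrast chose the gene, so nothing is read from these counts beyond their size. With either WT line left out, the calls fell to 3 (without WT 1) or 2 (without WT 2) of the Brinp sites, while the median log2 fold change of Brinp1 stayed between -3.86 and -3.19.

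The Brinp1 promoter site, at chr4:68953974-68954757, spans the annotated start of the gene. It held 68 and 147 normalized counts in the WT lines (108 ± 55.9, SD, n = 2) and 8 and 11 in the KO lines (9.50 ± 2.12, SD, n = 2). The KO lines were close to each other and the WT lines differed by more, but both KO values were far under the lower WT value. Its log2 fold change was -3.28 (SE 0.50), and the reads behind the KO 1 value were about 7. The RefSeq promoter printed above has a GC content of 63.3% and 18 CpG dinucleotides, and holds 2 Sp1 motif matches. Of 32851 mouse promoters of 300 bases in the same table, 35.7% hold a match.

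The body of Brinp1 held 3 further sites, all intronic, and none was exonic. The strongest site of the gene, at chr4:68788511-68789754, had 274 and 452 in the WT lines (363 ± 126, SD, n = 2) and 23 and 38 in the KO lines (30.5 ± 10.6, SD, n = 2). Its log2 fold change was -3.53 (SE 0.38), and although it was by far the deepest measured of the 12, its KO level of 8.40% of WT was much like that of the weaker sites. The site at chr4:68865057-68865582 had 47 and 62 in WT and 2 and 8 in KO. The weakest, at chr4:68950694-68950896, had 10 and 29 in WT and 2 and 0 in KO. With about 2 KO reads against about 53 WT reads, its KO level was 6.09% of WT per unit of depth, with a 95% exact binomial interval of 0.719% to 23.1% for counting error alone. Over the 3 intronic sites the sum was 331 and 543 in WT and 27 and 46 in KO, 8.35% of WT.

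Another 7 sites lay past the 3' end of Brinp1, in DNA with no other annotated protein-coding gene nearer than Brinp1 itself. Their sum was 445 and 454 in the WT lines, which were almost equal here, and 40 and 19 in the KO lines. The KO mean was 6.56% of the WT mean. The site of lowest log2 fold change, at chr4:68632182-68632873, had 133 and 74 in WT (104 ± 41.7, SD, n = 2) and 12 and 0 in KO (6.0 ± 8.49, SD, n = 2), giving -4.80 (SE 1.19). The site at chr4:68665231-68665741 had 47 and 64 in WT (55.5 ± 12) and 9 and 0 in KO (4.50 ± 6.36), with -4.14 (SE 1.15). In both, the KO lines differed from each other, with KO 2 at 0. The place of the first as lowest rests on that 0, since its log2 fold change was -2.95 without KO 2 and -3.09 with a pseudocount of 8.

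The farthest of the 7, 418 kb from the start of the gene at chr4:68536198-68536923, had 85 and 60 in WT (72.5 ± 17.7, SD, n = 2) and 3 and 3 in KO (3.00 ± 0), with -4.18 (SE 0.57). Its KO mean, 4.14% of the WT mean, was the lowest such share of the 12 sites, against 5.80% at the site of lowest log2 fold change. The site at chr4:68549254-68549837 had 88 and 122 in WT (105 ± 24.0) and 9 and 6 in KO (7.50 ± 2.12), with -3.64 (SE 0.44). The other 3 had WT values between 14 and 84 and KO values between 1 and 6. At 2 of these, KO reads numbered only 2 and 3, and the intervals for counting error reached from 0.761% to 24.6% and from 1.70% to 26.1% of WT. The KO mean was thus 8.84% of WT at the promoter, 8.35% in the introns and 6.56% downstream, and at none of these 11 sites did a KO value reach a WT value. The sites are merged peaks, so those with very few KO reads may be listed only because a WT line had a peak there. Lower KO values at such sites are then partly a condition of being listed.

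The twelfth site stood apart. It lies 168 kb upstream of the start of Brinp1, at chr4:69122703-69122902, and had 14 and 6 in WT and 25 and 12 in KO, with overlapping groups and a log2 fold change of 0.84 (SE 0.77). Without it, the sums were 844 and 1144 in WT and 75 and 76 in KO, so the KO mean was 7.60% of the WT mean. The plot of the Brinp1 region shows the change of pattern between the promoter site and this upstream site. No site is listed in the 0.168 Mb between them, so the change cannot be placed more closely.

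**Figure D1:**
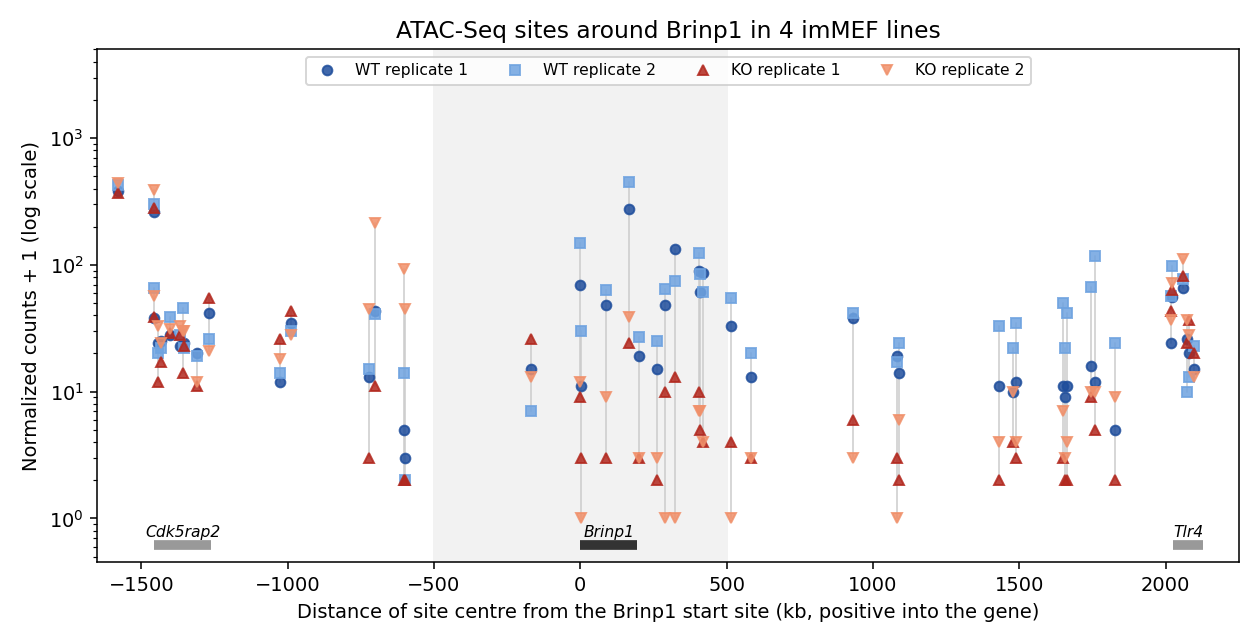
Normalized counts + 1 (log axis) of each ATAC-Seq site around Brinp1 in the 4 lines against distance from the start of the gene in kb, with positive values in the direction of transcription. The shaded band is the 500 kb window, and bars at the bottom are gene bodies. KO points sit below both WT points from the promoter to the far end of the window, and the 1 site upstream does not follow them.

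The lower signal did not stop at the edge of the window. Just inside it on the downstream side, the site at 418 kb had 85 and 60 in WT and 3 and 3 in KO, and just outside, at 515 kb, the values were 32 and 54 in WT and 3 and 0 in KO. On the upstream side the site just inside is the one at 168 kb, and the site just outside, at 600 kb, had 2 and 1 in WT and 1 and 44 in KO. Counting neighbouring sites along the chromosome, 17 sites in a row from chr4:67524482 to the Brinp1 promoter had both KO values below both WT values, a stretch of 1.43 Mb. This was the third longest of 8829 such runs in the genome, the longest being 24 sites on chromosome 1. With a stricter rule, in which 3 times the higher KO value was still below the lower WT value, the run was 15 sites over 1.08 Mb (from chr4:67871661 to chr4:68954757) and was the longest of 193, ahead of a run of 8. Both rules were chosen with the values in view, and sites with few KO reads may be listed through a WT peak alone. Under either, the run ended at the Brinp1 promoter site.

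Large domains of lower accessibility were also located with the rule that the study states for primary MEFs, run here on the limma log2 fold changes. It takes a mean log2 fold change under -0.58 over 25 consecutive sites, with such windows joined over up to 1 Mb. In these lines it gave 167 domains, against 84 with a pseudocount of 8, 109 after quantile normalization and 196 with equal totals. Ranks among the 167 therefore hold for the main setting only. All 12 Brinp1 sites fell in 1 of the 167, of 3.41 Mb and 40 sites, at chr4:66857038-70265576. Of all 82325 sites, 3092 lay in a domain. The mean log2 fold change over the sites of the Brinp1 domain was -1.75, the 12th lowest of the 167. Of its 40 sites, 24 had both KO values below both WT values and 11 had a log2 fold change above 0, so the domain was not uniform. Among sites with higher signal (a mean no lower than that of the median site, 52.0), 2 Brinp1 sites lay in a domain. The median mean of the Brinp1 sites was 33.9, so the filter itself removed many of them before domains were drawn. When the Brinp1 window was widened to 1 Mb, the log2 ratio of the summed signal was -1.82 in place of -3.42. The added upstream sites included 4, between 600 and 723 kb from the gene, at which KO 2 had 44, 92, 214 and 44, far above KO 1.

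Brinp2 (ENSMUSG00000004031.13, chr1:158245269-158356326, minus strand) was not lower in the KO lines. Its 23 sites summed to 1440 and 1492 in the WT lines (1466 ± 36.8, SD, n = 2) and 2037 and 2093 in the KO lines (2065 ± 39.6, SD, n = 2), so the KO mean was 141% of the WT mean. The sums did not overlap between genotypes and were close within each. Opposite differences between lines offset each other in them. KO 1 was above KO 2 in the gene body and promoter (278 against 95) and downstream (187 against 80), but below it upstream (1572 against 1918). The median log2 fold change was 0.33, with a range from -0.88 to 1.17, and limma called 0 sites in either direction (backgrounds 0.302% and 0.0705%). Of the 23, 2 had an unadjusted limma p under 0.05, against 3.13% of all sites. Both KO values lay above both WT values at 6 of the 23 sites (14.6% of all sites) and below at 1 (14.3% of all sites), and the groups overlapped at 16. None of the 23 lay in a domain of lower accessibility, where 3092 of all 82325 sites lay.

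The higher sum came from outside the gene. At the Brinp2 promoter, chr1:158356125-158356575, values were 72 and 59 in WT (65.5 ± 9.19, SD, n = 2) and 61 and 41 in KO (51 ± 14.1, SD, n = 2). The groups overlapped, and the log2 fold change was -0.38 (SE 0.36). The promoter site and the 3 intronic sites together summed to 215 and 144 in WT and 278 and 95 in KO, where the KO lines differed more than the genotypes. At each of the 3 intronic sites, WT 1 and KO 1 were above both other lines. The lines therefore split across genotype at the gene itself. The same split was seen in the sum of the 3 sites downstream of the gene, with 138 and 52 in WT and 187 and 80 in KO. Among those 3, the farthest, at 481 kb (chr1:157875092-157875459), had 13 and 6 in WT and 32 and 14 in KO, with a log2 fold change of 1.17 (SE 0.74).

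The 16 sites upstream of Brinp2 summed to 1087 and 1296 in WT and to 1572 and 1918 in KO, 146% of WT. This stretch holds the neighbouring genes Astn1, which encodes a neuronal cell adhesion protein that guides migration along glia and is related to the BRINPs, and Pappa2, which encodes a protease of IGF-binding proteins. The strongest site of all 36, at chr1:158605449-158606688 in the body of Astn1, had 434 and 507 in WT (470 ± 51.6, SD, n = 2) and 639 and 851 in KO (745 ± 150, SD, n = 2), with a log2 fold change of 0.65 (SE 0.16). The second strongest of Brinp2, at chr1:158732833-158733601, had 234 and 164 in WT (199 ± 49.5) and 292 and 380 in KO (336 ± 62.2), with 0.76 (SE 0.24). At both, each KO value was above each WT value, and the KO means were 158% and 169% of the WT means.

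The site just inside the upstream limit of 500 kb, at chr1:158853006-158853728 in the body of Pappa2, had 76 and 229 in WT (152 ± 108, SD, n = 2) and 206 and 202 in KO (204 ± 2.83, SD, n = 2). Here WT 1 alone was low and WT 2 was above both KO lines, so the log2 fold change of 0.62 (SE 0.49) became -0.17 without WT 1. Just outside, at 541 kb, values were 82 and 109 in WT and 125 and 149 in KO. Among weaker sites, chr1:158701362-158701727 had 18 and 21 in WT (19.5 ± 2.12) and 39 and 38 in KO (38.5 ± 0.707), with 0.95 (SE 0.41). The site at chr1:158816513-158816840 had 8 and 17 in WT (12.5 ± 6.36) and 25 and 27 in KO (26.0 ± 1.41), with 1.08 (SE 0.59). The site just outside the downstream limit, 639 kb from the start, had 8 and 35 in WT and 16 and 14 in KO, with overlapping groups.

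**Figure D2:**
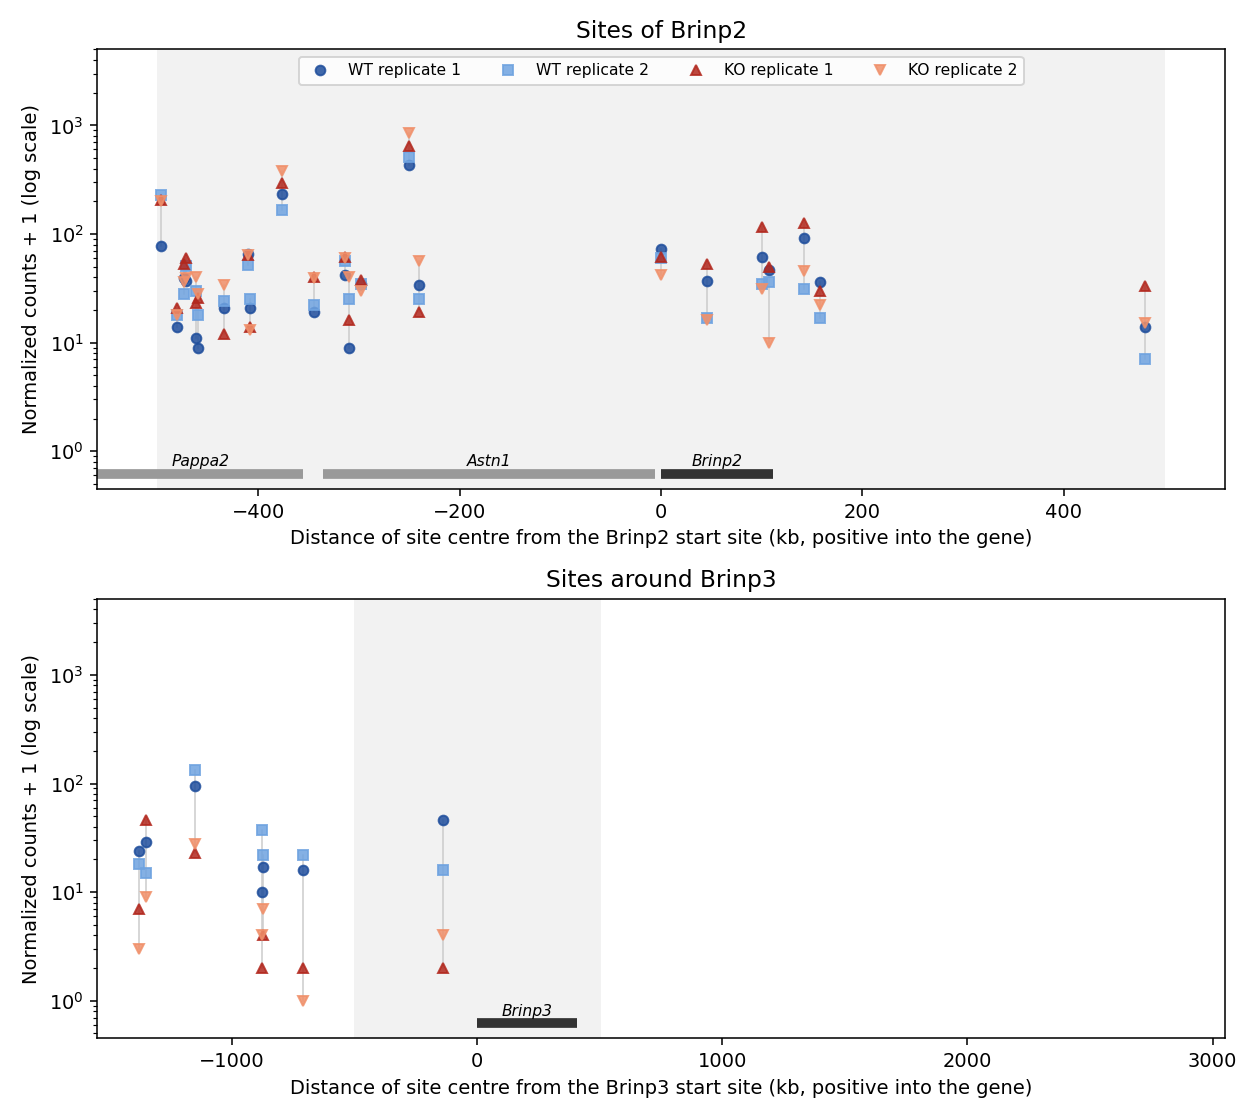
Normalized counts + 1 (log axis) of the Brinp2 sites (top) and of the sites around Brinp3 (bottom) in the 4 lines against distance from the start of each gene in kb, with positive values in the direction of transcription. Shaded bands are the 500 kb windows, and bars are gene bodies. The strongest Brinp2 sites lie upstream with KO above WT, and Brinp3 has 1 site in its window and none for 3.35 Mb after it.

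Brinp3 (ENSMUSG00000035131.14, chr1:146494760-146902472, plus strand) had no accessible site in its body or at any annotated start, although it is the longest of the family at 408 kb. Its 1 site lies 138 kb upstream, at chr1:146357024-146357347, in intergenic DNA. It held 45 and 15 in the WT lines (30.0 ± 21.2, SD, n = 2) and 1 and 3 in the KO lines (2.00 ± 1.41, SD, n = 2). Its log2 fold change was -3.26 (SE 1.07), and the site was not called. WT 1 was well above WT 2, and the KO values stood for about 1 and 2 reads, so the site may be listed through a WT peak alone. Per unit of depth the KO level was 6.55% of WT, with a 95% exact binomial interval of 1.32% to 19.9% for counting error.

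The next site in the table after it begins at chr1:149705258, a gap of 3.35 Mb, the 15th widest of 82304 gaps between neighbouring sites, whose median was 10.8 kb. Across that gap, which takes in the whole of Brinp3, no region was listed as accessible in these cells, and signal too weak to be listed could not be compared. The next site had 37 and 23 in WT and 17 and 30 in KO, with overlapping groups. In the other direction, the site just outside the window, 713 kb upstream, had 15 and 21 in WT and 1 and 0 in KO. The Brinp3 site was the last of 5 sites in a row with both KO values below both WT values, and the last site of a domain of lower accessibility of 3.82 Mb and 37 sites, at chr1:142541643-146357347. The mean log2 fold change of that domain was -2.08, the ninth lowest of the 167, and 31 of its 37 sites had both KO values below both WT values.

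The 3 genes thus differed in where they had open chromatin as well as in how it compared between genotypes, as the plot of summed signal by class of site shows. In WT lines the mean sum was 1004 for Brinp1, 1466 for Brinp2 and 30.0 for Brinp3. In KO lines it was 94.0, 2065 and 2.00. Brinp1 was lower in KO in its promoter, intronic and distal classes alike, whereas the Brinp2 classes lay on either side of WT.

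**Figure D3:**
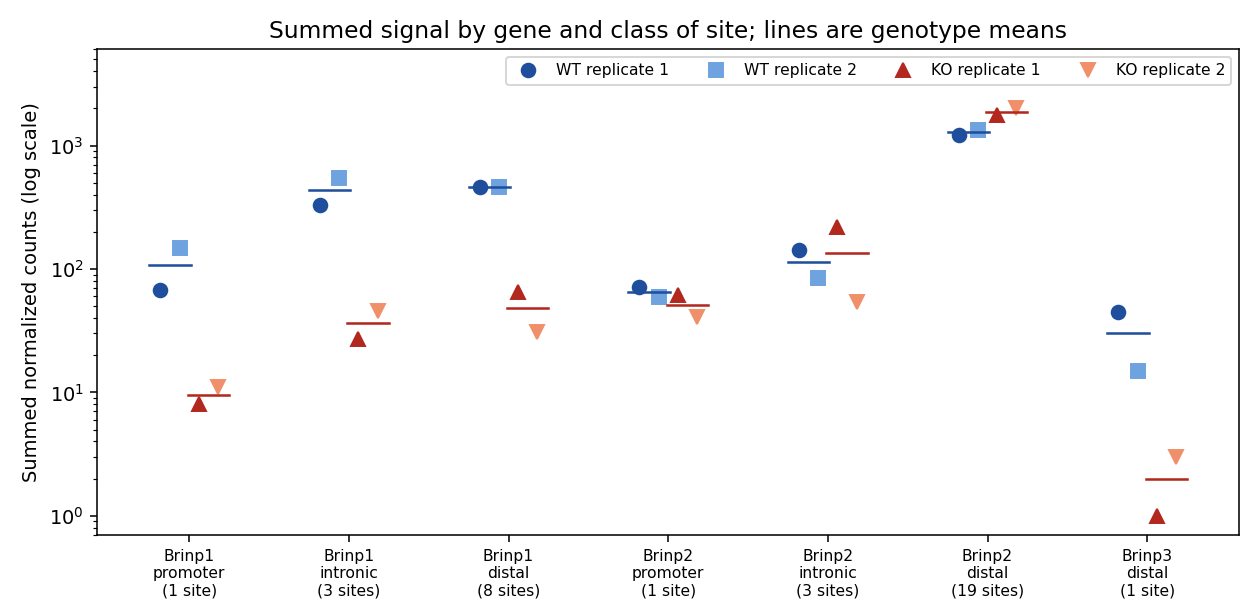
Sum of normalized counts (log axis) over the promoter, intronic and distal sites of each gene, 1 point for each line, with a horizontal line at the mean of each genotype (n = 2). All Brinp1 classes and the Brinp3 site have KO below WT, and the Brinp2 distal sum has both KO lines, at 1759 and 1998, above both WT lines.

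To place these sums, the same window was drawn around every protein-coding gene, and 20183 genes had at least 5 sites in it. The log2 ratio of KO over WT was taken from the mean log2 sum of each genotype, and its median over these windows was 0.06. Brinp1, at -3.39, had the lowest ratio of the 20183, and 102 windows were at -1 or below. The gene was chosen on this contrast, so its rank is a description and lends no support to the difference. Windows overlap, so these are not separate measurements. Brinp2, at 0.49, was number 20152 when counted from the lowest. Brinp3 had too few sites to be ranked. The genes on other chromosomes whose centred log2 sums lay closest to those of Brinp1 over the 4 libraries were Serpinb7, Serpinb2 and Serpinb8 on chromosome 1, inhibitors of serine proteases. Their windows hold the same 7 sites, with sums of 322 and 387 in WT and 48 and 30 in KO, at a Euclidean distance of 0.41. Closest to Brinp2 were Cpne8 (distance 0.07), Tox3 (0.08) and Kcnj2 (0.13), which encode a copine, a chromatin-associated HMG-box protein and a potassium channel. Cpne8 had sums of 3010 and 3046 in WT and 4020 and 4104 in KO.

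**Figure D4:**
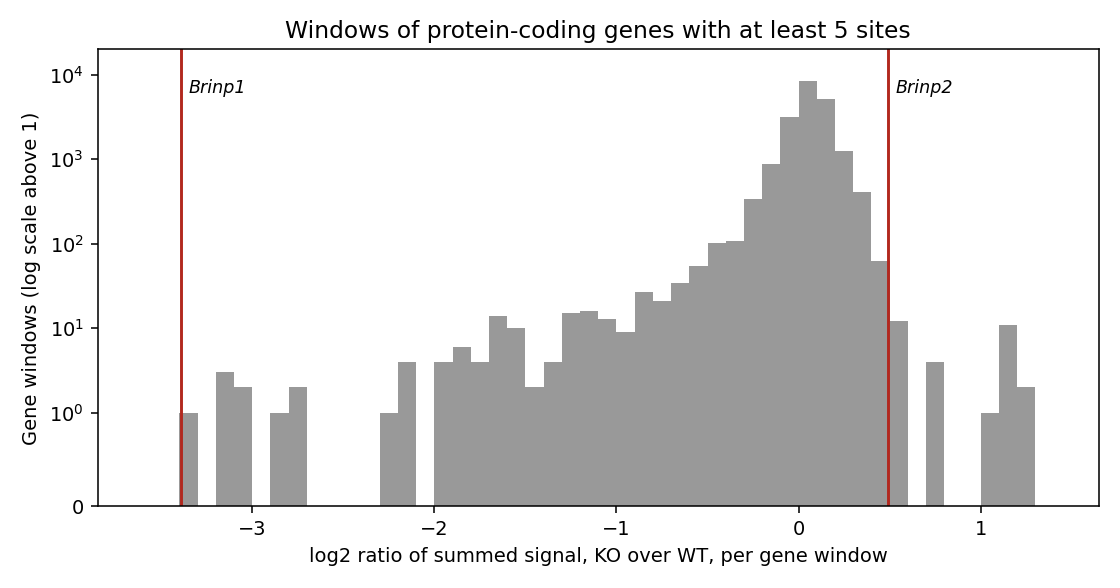
Number of protein-coding gene windows (symmetric log axis) by the log2 ratio of their summed signal, KO over WT, in bins of 0.1. Lines mark Brinp1, at -3.39 the lowest of 20183 windows, and Brinp2 at 0.49. Brinp1 was chosen on this contrast.

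Among 12 genes of MACPF proteins, 5 had a promoter site in these cells, with 7 such sites in all. Of these only the Brinp1 promoter was called lower, against 0.261% of the 29130 promoter sites of all genes. An unadjusted limma p under 0.05 was found at 2 of the 7, against 3.13% of the promoter sites of all genes. Both KO values lay above both WT values at 2, against 14.6% of all sites. These were at C9, with 44 and 31 in WT and 91 and 65 in KO, and 143 and 159 in WT and 186 and 170 in KO. The 2 Astn1 promoter sites, which are also Brinp2 sites, lie at starts of other annotated transcripts, 235 and 292 kb from the start of the gene. They had 33 and 24 in WT and 18 and 56 in KO, and 34 and 34 in WT and 37 and 29 in KO, with overlapping groups at both. Of 17 genes that neighbour the Brinp genes or their paralogous regions, 11 had promoter sites, 5 had none and 1 was not found in the annotation by its symbol. Any annotated start counts here, and the promoter sites of Pappa2 lie 164 and 143 kb from the start of the gene. Of the 21 promoter sites, 0 were called by limma, and 2 had an unadjusted p under 0.05, against 3.13% of the promoter sites of all genes. Tlr4, the endotoxin receptor gene at the far edge of the chromosome 4 domain, had 536 and 675 in WT and 735 and 731 in KO at its promoter. Cdk5rap2, the centrosomal protein gene on the other side of Brinp1, had 259 and 299 in WT and 279 and 391 in KO at its strongest promoter site. Its other promoter sites had 37 and 65 in WT and 38 and 56 in KO, and 19 and 18 in WT and 10 and 11 in KO. The last of these, at chr4:70265377-70265576, lies 145 kb from the start of the gene. It ends the chromosome 4 domain and had both KO values below both WT values. Rgs2, a regulator of G protein signalling inside the chromosome 1 domain that ends near Brinp3, had 230 and 182 in WT and 17 and 126 in KO at its stronger promoter site. Here both KO lines were below both WT lines, KO 1 by far the more. These 3 genes were picked after their values were seen.

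The retinoic acid and BMP pathways, for which the family is named, had open promoters in these cells. Of 19 retinoic acid genes 18 had promoter sites (49 sites, median log2 fold change -0.05), and of 26 BMP genes 25 did (56 sites, median -0.03). None of these sites was called by limma, and 1 in each list had an unadjusted p under 0.05, against 0.261% called lower and 3.13% at that p among promoter sites of all genes. The lowest log2 fold change in each list was -1.09, at a promoter site of Aldh1a2, a retinaldehyde dehydrogenase, with 41 and 25 in WT and 14 and 15 in KO, and -1.10, at one of Gdf6, a BMP ligand, with 38 and 34 in WT and 10 and 26 in KO. Both were named after their values were seen. Promoter sites of fibroblast markers were strong, with a median over 15 genes of 243 for the highest promoter value of a gene, against 49.6 for 14 neuron markers and 6.25 for 6 glia markers, where genes with no promoter site count as 0. Fibroblast markers without a promoter site numbered 1, neuron markers 2 and glia markers 3. None of the promoter sites of the 3 marker lists was called by limma, and 2 of 36, 0 of 18 and 0 of 4 had an unadjusted p under 0.05, beside the same 0.261% and 3.13%.

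The DNA of the sites was compared over their central 200 bases. The median GC content was 40.5% for Brinp1 sites, 42.5% for Brinp2 sites and 42.0% for the Brinp3 site, against 49.0% for all sites. The median share of repeat-masked bases was 14.0%, 10.0% and 22.5%, against 1.5% for all sites. Class of site was not matched in these comparisons, and 29130 of all 82325 sites are promoter sites. Within 1 Mb around each start, GC content was 38.0% for Brinp1, 41.0% for Brinp2 and 36.2% for Brinp3, with 1, 2 and 1 start sites of protein-coding genes.

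The AP-1 motif TGANTCA, bound by dimers of Fos and Jun family proteins that are abundant in fibroblasts, was found in 5 of 12 Brinp1 sites, 13 of 23 Brinp2 sites and the Brinp3 site, against 32.4% of all sites. Class of site was not matched here either, and the AP-1 motif was in 7.81% of the 32851 RefSeq promoters. In the sequences above, it occurs 2 times in the second intronic Brinp1 site and once each in the second strongest Brinp2 site and the Brinp3 site. The TEAD motif GGAATG, read by the DNA-binding partners of YAP, was in 2, 4 and 1 sites of the 3 genes, against 18.9% of all sites. The distal Brinp1 site of lowest log2 fold change holds 2 matches. The core motif of CTCF was in 0, 2 and 0 sites, against 7.08% of all, and both Brinp2 matches lie in the body of Astn1. Direct repeats of AGGTCA with a gap of 5 or 2 bases, the form of element that retinoic acid receptors bind, were in 0 of the 36 sites, and in 0.0121% and 0.00607% of all sites. GGGCGG was in 0 of the 36 central windows and in 13.5% of all. Matches were searched on both strands, and the motifs do not share matches with each other in the sequences printed. The strongest Brinp1 site holds none of these motifs in its central 200 bases.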

How the data were processed

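The 4 libraries (2 HAT1 WT and 2 HAT1 KO imMEF lines) were made from nuclei treated with Tn5. Per the labels, reads were aligned to mm10 with BWA 0.7.12, peaks were called with MACS2 2.1.0 and DESeq2 was run. The authors merged peaks into 82325 sites and deposited, for each site and library, a normalized count rounded to a whole number. These deposited values are treated as a score: the authors divided the reads of a site by a library factor and rounded them, so a count model was not run. The deposited table also holds the authors' own fold changes and p-values for the comparison, which were not used.

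Sites were placed on GENCODE vM21 gene models (promoter, within 3 kb of an annotated start). log2(value + 1) of all sites was fitted with limma 3.58.1 (R 4.3.3, intensity trend), KO against WT, with no filter, and p-values were adjusted over all sites. The fit was tested on simulated data. The members, lists and tests were chosen with earlier results of these data known. For each gene, full values are given of its promoter sites, its 3 strongest sites, its 3 sites of largest log2 fold change with a mean of at least 10, and the sites at the edges of the window. GRCm38.p6 sequence was read with pysam 0.24.0. Replicates are separate lines. The limma p-values and SEs rest on the spread between lines of a genotype, moderated toward a trend with signal over all sites. An SE can therefore differ from the spread of the lines at its own site. Alternatives covered the pseudocount, scaling, a filter on signal, the window, the definition of promoters and leaving out each line. RefSeq promoters of 300 bases were matched by symbol for 2 of the 3 genes.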

Additional observations from a re-analysis of the deposited data

How the results depend on the processing

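No paired analysis was possible because the labels give no replicate numbers, and the 1 number that the names of WT 1 and KO 2 share, of unknown meaning, would link only 1 pair. Among the medians, sums and named sites of the Brinp genes, the sign changed for the Brinp2 median (below) and for the Brinp2 site at 497 kb (0.62, and -0.17 without WT 1) and for no other under the alternatives run, and the log2 fold changes of the named Brinp1 sites stayed between -6.65 and -2.43. Of the alternative values of the main results, 131 were within the spread between lines or 1.5 times the count, and 44 were not. For these the cause was not tested, except that a filter, a window or a dropped line changes which sites or lines enter. The whole table had 249 sites called lower, 76 among sites with higher signal, 14 to 548 with 1 line left out (20 without WT 1, 14 without WT 2, 548 without KO 2) and 3983 by log2 fold change alone. Sites called higher were 58, then 22 to 64 (22 without WT 2) and 1305. Brinp sites called lower were 7, then 3 among sites with higher signal, 2 to 7 with 1 line left out, 3 within 250 kb, 3 in the gene body and promoter only, and 12 by fold change alone. Brinp sites called higher were 0, then 0 to 1 with 1 line left out (1 without WT 2) and 2 by fold change alone. Brinp sites with both KO values below both WT values were 13, then 4 among sites with higher signal, 6 within 250 kb, 23 within 1 Mb and 4 in the gene body and promoter. Those above were 6, then 3, 1, 14 and 0 in the same order, and 10 to 15 with 1 line left out. The Brinp1 median of -3.47 was -2.52 with a pseudocount of 8, -3.12 after quantile normalization and -3.86 to -3.19 with 1 line left out. The log2 ratio of the Brinp1 sum, -3.42, was -3.67 among sites with higher signal, -3.12 within 250 kb and -1.82 within 1 Mb. The Brinp2 median, 0.33, was -0.08 in the gene body and promoter. The log2 ratio of the Brinp2 sum, 0.49, was 0.43 with equal totals, 0.43 after quantile normalization, 0.56 among sites with higher signal, 0.32 within 1 Mb and 0.06 in the gene body and promoter. The Brinp3 value of -3.26 was -1.81 with a pseudocount of 8, and its site is dropped by the filter on signal, which left 2 Brinp1 sites and 0 Brinp3 sites in domains. Listed promoters other than Brinp were called 0 times, and 0 to 2 times with 1 line left out (2 without KO 2). Depth limits single weak sites, where KO values stand for a few reads.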

Other observations

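Beyond the Brinp1 window, single lines stood apart within a genotype. From 1430 to 1825 kb past the start of Brinp1, in the direction of transcription, 9 sites had values of 4 to 15 in WT 1 and 21 to 117 in WT 2, with KO values from 1 to 9. The clearest, at chr4:67196732-67197320, had 11 in WT 1, 117 in WT 2, 4 in KO 1 and 9 in KO 2. Upstream of Brinp1, the site at chr4:69656473-69657373 had 42 in WT 1, 40 in WT 2, 10 in KO 1 and 214 in KO 2. About 1950 kb upstream, the site at chr4:70903969-70904554 had 89 and 86 in the WT lines, 8 in KO 1 and 57 in KO 2. These sites were picked after their values were seen, and some of them also lie in the run of sites and the domain described above.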
